A study of Mus musculus with 7 samples.

Results

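The genes described here encode the cytosolic translation initiation and elongation factors of the mouse, together with regulators that carry the same name stem. They were chosen by name alone: a member is a row whose symbol starts with Eif or Eef and a digit, apart from the Y-linked Eif2s3y. The rule matched 63 of the 24354 rows of the deposited table. Eif3j1 and Eif3j2 are near-identical copies, so their values were summed, which left 62 members. The name also takes in genes that are not translation factors in the strict sense, such as the 4 kinases of eIF2, the eIF4E-binding inhibitors and Eif4a3, a helicase of the exon junction complex.

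Initiation places the ribosome on a start codon. eIF2 brings the initiator tRNA, eIF2B reloads eIF2 with GTP, eIF3 holds the small ribosomal subunit, the eIF4 group binds and unwinds the capped end of the mRNA, and eIF1, eIF1A, eIF5 and eIF5B act at start codon choice and subunit joining. Elongation then needs eEF1A and its exchange factors, which deliver aminoacyl-tRNA, and eEF2, which moves the ribosome along the mRNA. Phosphorylation of eIF2 alpha by stress kinases and binding of eIF4E by hypophosphorylated 4E-BP proteins are the best known brakes on this machinery. Transcript levels say nothing of such phosphorylation.

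RNA sequencing covered 7 libraries, 1 of mouse embryonic fibroblasts (MEF), 1 of control neural stem cells (cNSC) and 5 of induced neural stem cells (iNSC), which are fibroblasts converted by virally delivered reprogramming factors and grown in medium for neural stem cells. The cells came from embryos of day 13.5, the fibroblasts from embryos without head and inner organs and the cNSCs from the cerebral cortex. MEF, pOKSM, pBKSM and clones 1 and 3 of mcBKSM shared the strain C57BL/6-Pou5f1 x 129X1/SvJ and the genotype Oct4-CreER x Rosa26-loxSTOPlox-EYFP, in which a Cre tied to Oct4 can switch on a fluorescent reporter. The DTA line had the genotype Oct4-CreER x Rosa26-loxSTOPlox-DTA, in which the same Cre can switch on diphtheria toxin fragment A, and its strain is labelled Unknown. The cNSC library came from OG2/ROSA26 mice, so strain and cell type cannot be told apart where cNSC is compared. Those mice were described as heterozygous females, although the library held Y-linked transcripts such as Eif2s3y (48.2 FPKM). The growth protocol names polycistronic and monocistronic vectors, but the labels do not spell out the letters p and mc of the library names. Whether and when Cre was induced is not given in the sources used here. Each library was made from RNA pooled over 2 to 3 biological replicates, so spread within a line cannot be seen.

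Expression was given as FPKM, a fragment count divided by transcript length and library size. Depth, estimated from the steps between low values, was 11.6 (pBKSM) to 16.8 (DTA) M fragments (1 M = 1e6), and 10907 to 11429 genes reached 1 FPKM in a library. The labelled cell types showed their markers: 6 fibroblast markers summed to 1485 FPKM in MEF, 0.857 in cNSC and 1.78 to 34.1 in the iNSC libraries, and 6 neural stem cell markers summed to 0.103, 2251 and 1075 to 5847 FPKM. Of the neural stem cell markers, 5 of 6 were listed at 0 in MEF, and all 6 were higher in every iNSC library than in MEF. Fabp7 made up most of the highest sum (5051 FPKM in pBKSM). Sox2, at 87.6 to 390 FPKM in the iNSC libraries, is the S of OKSM and BKSM, so it is a vector gene as well as a marker. Sums of 6 neuron markers were 13.7 FPKM in MEF, 132 in cNSC and 123 to 267 in the iNSC libraries. Map2 made up most of this sum in cNSC (117 FPKM) and the iNSC libraries (112 to 259). In pBKSM, which had the highest sum, Snap25 and Stmn2 were listed at 0. Against mcBKSM, 5 of 6 neuron markers were lower in pBKSM and 1 was higher. Sums of 4 astrocyte markers were 0.135 FPKM in MEF, 383 in cNSC and 0.0807 to 66.6 in the iNSC libraries. Markers of pluripotent cells, microglia, endothelium, erythroid cells and skeletal muscle each summed to at most 1.09 FPKM in every library. Myc, one of the vector genes, stood at 47.8 FPKM in MEF, 42.5 in cNSC, 339 in pOKSM, 78.9 in pBKSM, 450 and 485 in mcBKSM clones 1 and 3 and 50.1 in DTA.

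Promoter sequence was available in RefSeq (GRCm38.p6, the same assembly as mm10) as 64 windows of 300 bases for the genes of 49 members, each running from 250 bases before to 50 after a start site. The E-box CACGTG, which is its own reverse complement and is a binding motif of Myc and related factors, occurred in 14 of these windows (21.9%), which belong to 12 genes. It occurred in 7.15% of all 32851 windows and in 9.83% of the windows of genes that reached 1 FPKM. The 12 genes were Eef2, Eef2k, Eif1b, Eif3a, Eif3f, Eif3k, Eif4a1, Eif4e, Eif4g1, Eif4h, Eif5a and Eif5a2. An uninterrupted run of at least 8 pyrimidines (C or T) was sought between positions -5 and +20, wherever in that stretch it began. Such a run occurred in 8 of the member windows (12.5%) and in 8.52% of all windows. A match describes letters only and is not a measured binding site. The stretches below are the promoters of the cap-binding protein gene Eif4e, the scaffold gene Eif4g1, the helicase gene Eif4a1 and the translocase gene Eef2, shown because these core factors hold the E-box, which is in capitals. The windows lie at chr3:138527018-138527289 (plus strand), chr16:20672627-20672748 (plus), chr11:69672402-69672673 (minus) and chr10:81176531-81176652 (plus) and end 22 bases after the start site.
Eif4e: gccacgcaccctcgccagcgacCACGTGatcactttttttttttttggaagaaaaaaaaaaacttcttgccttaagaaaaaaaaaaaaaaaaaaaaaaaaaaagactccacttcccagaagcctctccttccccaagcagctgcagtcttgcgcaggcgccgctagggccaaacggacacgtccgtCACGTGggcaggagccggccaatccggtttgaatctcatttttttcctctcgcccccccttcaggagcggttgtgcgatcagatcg
Eif4g1: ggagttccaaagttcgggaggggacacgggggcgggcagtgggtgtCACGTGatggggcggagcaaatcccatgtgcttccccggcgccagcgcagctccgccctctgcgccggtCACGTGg
Eif4a1: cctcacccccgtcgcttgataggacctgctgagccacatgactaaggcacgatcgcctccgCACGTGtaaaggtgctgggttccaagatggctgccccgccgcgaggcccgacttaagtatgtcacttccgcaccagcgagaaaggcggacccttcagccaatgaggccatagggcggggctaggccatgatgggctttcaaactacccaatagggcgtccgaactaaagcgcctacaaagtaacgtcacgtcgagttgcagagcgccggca
Eef2: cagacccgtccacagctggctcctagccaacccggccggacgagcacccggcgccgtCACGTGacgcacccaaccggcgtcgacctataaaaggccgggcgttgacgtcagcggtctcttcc
The next 3 stretches surround the start sites of Eef1a1, which delivers aminoacyl-tRNA to the ribosome, and of the eIF3 subunit genes Eif3f and Eif3l, with the pyrimidine run in capitals. They lie at chr9:78481705-78481754 (minus), chr7:108934385-108934434 (plus) and chr15:79075193-79075242 (plus), each from 30 bases before to 20 after the start site, and hold runs of 10, 15 and 9 pyrimidines.
Eef1a1: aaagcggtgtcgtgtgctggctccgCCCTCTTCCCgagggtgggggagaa
Eif3f: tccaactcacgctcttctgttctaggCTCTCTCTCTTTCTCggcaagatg
Eif3l: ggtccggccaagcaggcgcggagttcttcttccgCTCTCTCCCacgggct

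Of the 62 members, 59 reached 1 FPKM in at least 1 library and could be tested. The other 3 stayed below 1 FPKM in every library. Eif4e1b, an oocyte-type cap-binding protein gene, was listed at 0 in each library. Eef1a2, the eEF1A form of mature muscle and neurons, was 0.325 FPKM in cNSC and 0.0326 in MEF and was listed at 0 in the 5 iNSC libraries, where 3 fragments would correspond to 0.0924 to 0.134 FPKM. Eif4e3 was listed at 0 in MEF and pBKSM and was at most 0.407 FPKM elsewhere (pOKSM). These floors cover counting error only.

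The 62 genes together took 3.01% of all FPKM in MEF, 2.94% in cNSC, 3.58% in pOKSM, 3.10% in pBKSM, 3.58% and 3.76% in mcBKSM clones 1 and 3 and 2.56% in DTA. Their summed level was 16161 FPKM in MEF, 13291 in cNSC, 19560.2 in pOKSM, 18414 in pBKSM, 19985 and 20505 in the clones and 11390 in DTA. The sum was thus lowest in DTA and highest in clone 3. Eef1a1 alone made up 36.3% (MEF) to 49.9% (clone 3) of it and was the first or second most abundant gene of every library. Without Eef1a1 the share of all FPKM ran from 1.51% (DTA) to 2.06% (clone 1). In FPKM as deposited, DTA held the lowest value of 29 of the 59 tested members, where it was lowest for 12.1% of all genes. cNSC and MEF held the lowest of 13 and 9 members, and of 14.4% and 28.6% of all genes. The highest value fell in MEF for 18 and in clone 1 for 16 members, and for 28.7% and 11.1% of all genes. Total FPKM was lowest in DTA (445433) and cNSC (451974), 537140 in MEF and 544949 to 594605 in the other iNSC libraries. The counts of lowest and highest values were not repeated with libraries rescaled to the same total. FPKM is relative to the library, so these values do not show how much RNA a cell held. In these bulk libraries fewer cells of a type and less RNA per cell cannot be told apart.

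**Figure D1:**
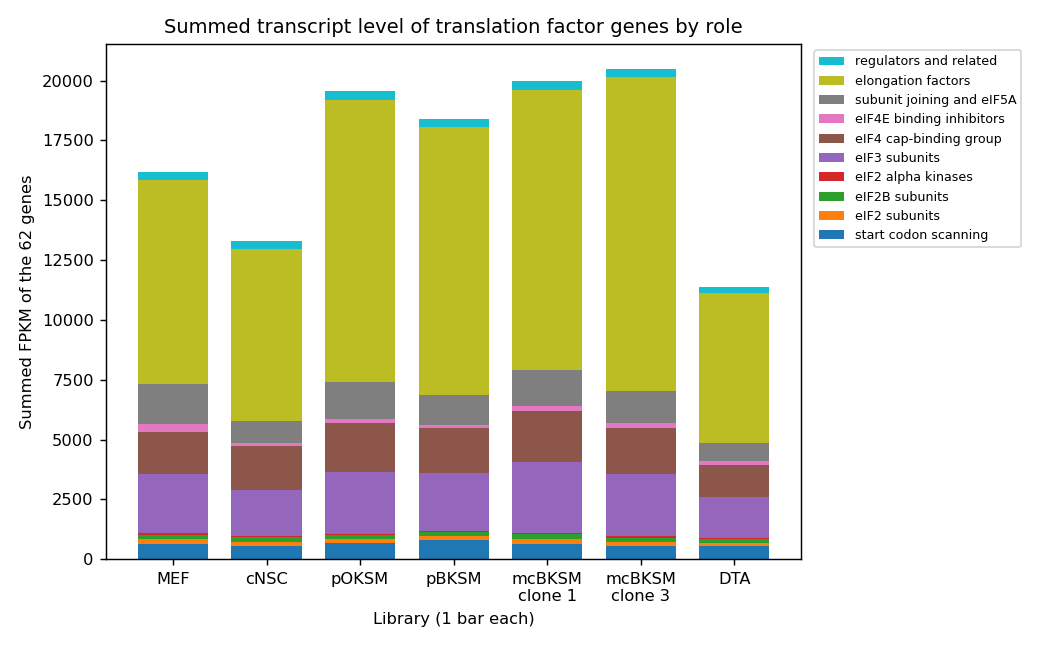
Summed FPKM (y axis) of the 62 translation factor genes in each of the 7 libraries (x axis, 1 bar each), divided by role. The DTA bar is the lowest at 11390 FPKM and the elongation factor segment is the largest in every bar.

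Between iNSCs and MEF, 6 of 59 members passed the test (limma on log2(FPKM + 1), Benjamini-Hochberg adjusted p under 0.05 over 13041 genes), against 16.3% of all genes tested. Eif4g3, Eif3f and the Eif3j sum rose (3 members, with 6.78% of all genes higher), and Eif6, Eif4ebp1 and Eif5b fell (3 members, with 9.55% of all genes lower). The members' median log2 difference was 0.05 and that of all genes 0.03, with 32 members positive and 27 negative. The spread in this test comes from the 5 iNSC lines, and the lone MEF library was assumed to vary like them, so p-values measure spread between lines. Eif4g3 and Eif6 kept their calls with each library left out in turn. They were the 2 members called without pOKSM (where 8.81% of all genes were called) and without mcBKSM clone 3 (10.9%). Limma called 4 members without pBKSM (16.1% of all genes), 4 without clone 1 (11.5%) and 10 without DTA (24.7%).

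Between iNSCs and cNSC, limma called 0 of 59 members, against 1.17% of all genes. At an unadjusted p under 0.05 there was 1 member higher and 3 lower in iNSCs, with 6.06% and 7.58% of all genes. The smallest adjusted p was 0.288 (Eif2s3x). The largest differences were -0.99 ± 0.32 for Eif2s3x, -0.77 ± 0.47 for Eif2ak2 and -0.71 ± 0.27 for Eif4g3 on the lower side and 1.03 ± 0.59 for Eef1b2, 0.97 ± 0.42 for Eif3k and 0.86 ± 0.35 for Eif3h on the higher side (log2, SE). Without DTA, where 6.84% of all genes were called, limma called 3 of 59 members, all higher: Eef1b2 (log2 difference 1.30, adjusted p = 0.0235), Eif3k (1.16, adjusted p = 0.0314) and Eif3m (0.85, adjusted p = 0.0494). cNSC and MEF, 1 library each with no test, differed 2-fold or more at 9 members. Eef2kmt, Eif1b and Eif4g3 were higher in cNSC (3 of 59, with 15.3% of all genes) and Eif1a, Eif2ak2, Eif3h, Eif4b, Eif4ebp1 and Eif6 lower (6 of 59, with 14.5% of all genes).

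Between pBKSM and the 2 mcBKSM clones, limma called 0 of 59 members, against 5.80% of all genes (smallest adjusted p = 0.0689, Eif1a). At an unadjusted p under 0.05 there were 7 members higher and 7 lower in pBKSM, with 20.1% and 17.3% of all genes. The members' median difference was -0.14 and that of all genes 0.00, with 39 members negative and 20 positive (45 negative under both other scalings). This test has 1 residual degree of freedom, from the 2 clones. The clones differed 2-fold from each other at 0 of 59 members, where 1.51% of all genes did.

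Between DTA and the other 4 iNSC libraries, limma called 0 of 59 members at an adjusted p under 0.05, against 0.355% of all genes (44 of 12377). At an unadjusted p under 0.05 there were 29 members lower and 0 higher in DTA, with 10.0% and 10.4% of all genes. The DTA value lay below all 4 other libraries for 44 members, as it did for 29.6% of all genes. The members' median difference was -0.47 with 49 negative, and the median of all genes -0.01. With each library rescaled to the same total, the median of all genes moved to 0.30 and that of the members to -0.14, with 40 negative. The distance of the members' median from that of all genes was -0.46 as deposited, -0.44 rescaled and -0.27 after quantile normalization. Without pBKSM, limma called 27 members, 26 lower and Eif2ak3 higher, against 32.4% of all genes in that fit. DTA differed 2-fold from cNSC at 0 of 59 members, with 11.0% of all genes, and from MEF at 14 of 59, with 30.8% of all genes. Astrocyte markers summed to 44.7 FPKM in DTA and 66.6 in pBKSM and to at most 4.33 in the other 3 iNSC libraries. Different genes made up these sums. S100b was 61.5 FPKM in pBKSM and 4.31 in DTA. Gfap and Aqp4 were 24.5 and 12.7 FPKM in DTA and 1.70 and 0.560 in pBKSM, and Aldh1l1 was 3.20 and 2.92. The part of astrocyte markers in the differences of DTA was not tested.

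**Figure D2:**
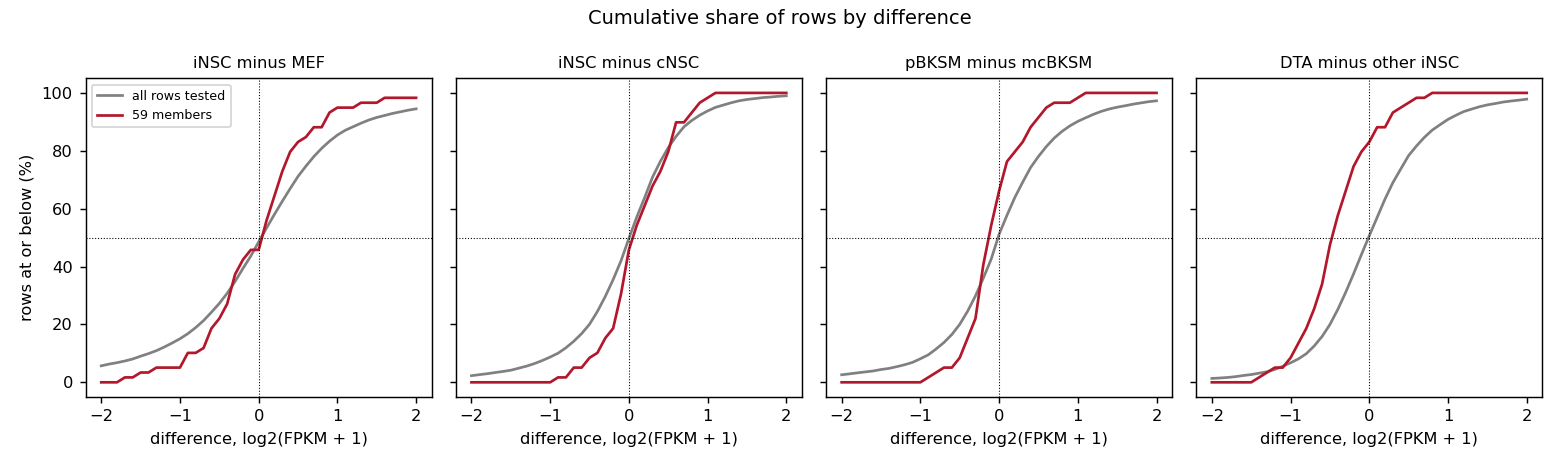
Cumulative percent of rows (y axis) at or below each difference in log2(FPKM + 1) (x axis) for the 59 tested members (red) and all rows tested (grey) in 4 comparisons. In the DTA panel the members' curve lies left of that of all rows, with medians of -0.47 and -0.01.

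**Figure D3:**
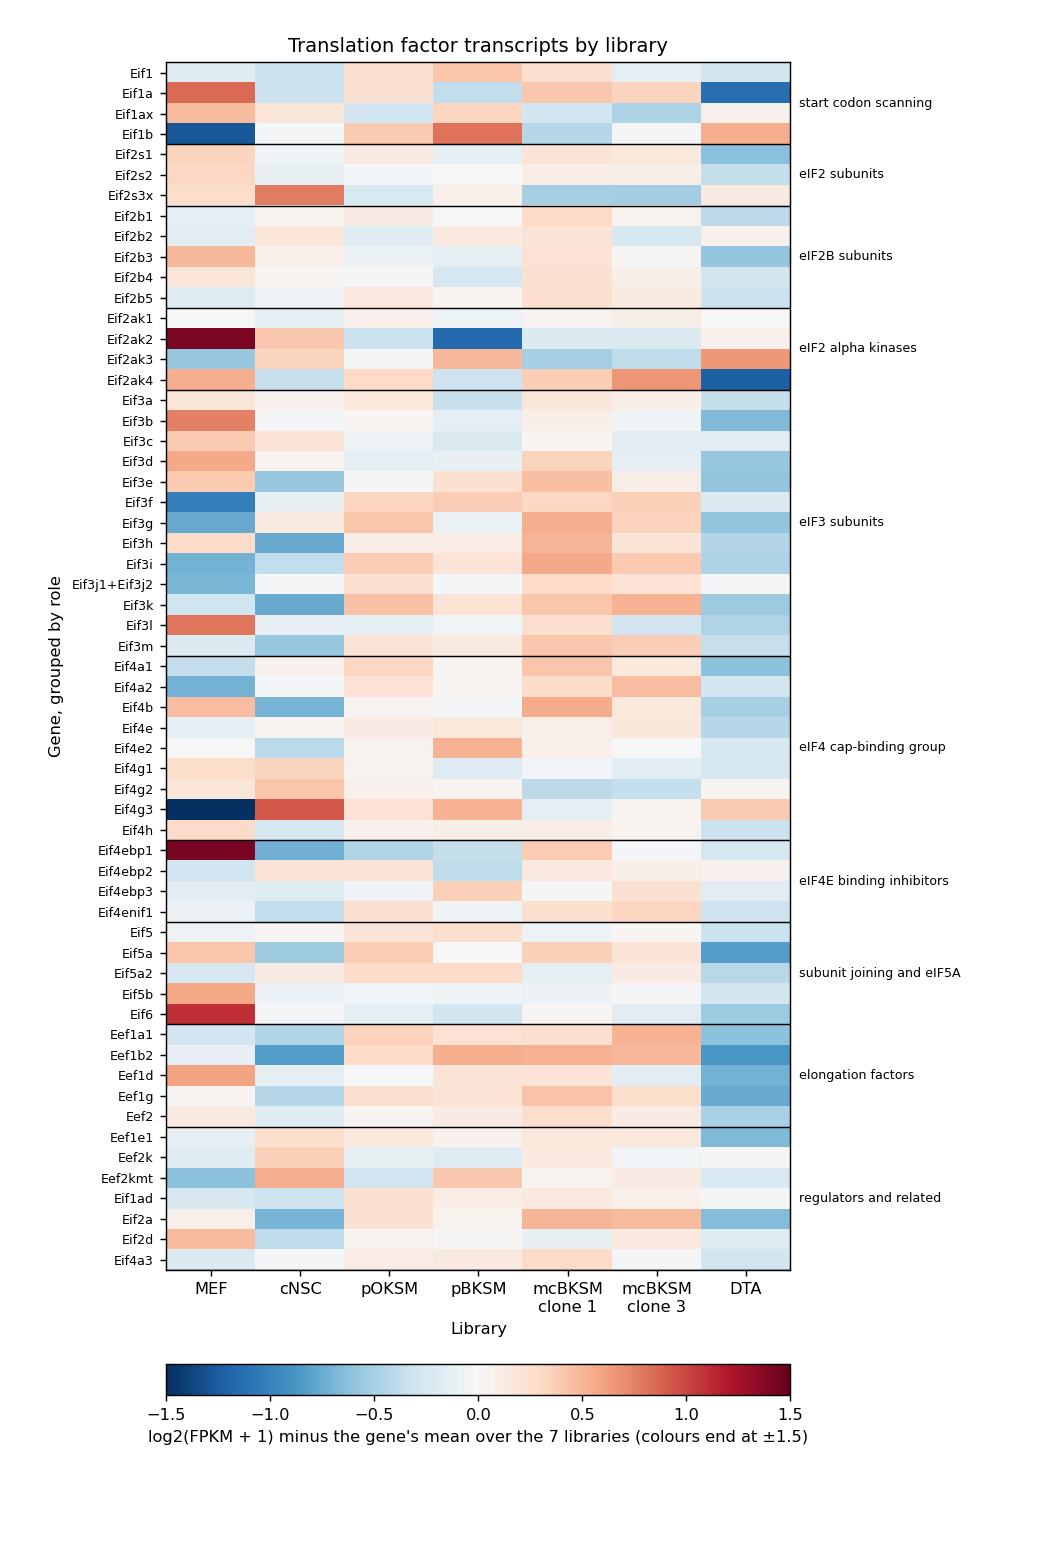
Each tested member (59 rows, grouped by role) in each library (columns), coloured by log2(FPKM + 1) minus the gene's mean over the 7 libraries, with colours ending at 1.5 either way. Values are as deposited, without rescaling to the same total. The DTA column is mostly blue (lowest of the 7 for 29 members and for 12.1% of all genes), and Eif4g3, Eif2ak2 and Eif4ebp1 stand apart in MEF.

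The factors of start codon scanning come as 2 pairs of related genes, whose balance differed between libraries. Eif1, which guards against wrong start codons, was 312 FPKM in MEF, 283 in cNSC, 417 in pOKSM, 472 in pBKSM, 422 and 323 in mcBKSM clones 1 and 3 and 291 in DTA. Eif1b, its paralogue (chromosome 9, 120492232 to 120495330, mm10), was 23.6 FPKM in MEF, 57.4 in cNSC, 77.4 in pOKSM, 104 in pBKSM, 43.4 and 57.5 in mcBKSM clones 1 and 3 and 86.3 in DTA. Eif1b was lowest in MEF, below every other library, and highest in pBKSM, so that its share of the pair ran from 7.03% in MEF to 22.8% in DTA. Its difference between iNSCs and MEF was 1.54 ± 0.47 (SE, limma adjusted p = 0.0827), which did not pass. The difference between pBKSM and mcBKSM was 1.04 ± 0.24 (limma adjusted p = 0.118) and did not pass either.

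eIF1A, which works beside eIF1 on the scanning subunit, has an autosomal gene, Eif1a, and an X-linked gene, Eif1ax, with similar sequences, so reads may be split between them. Eif1a was 67.4 FPKM in MEF, 29.1 in cNSC, 43.2 in pOKSM, 28.3 in pBKSM, 49.2 and 46.6 in mcBKSM clones 1 and 3 and 16.3 in DTA. Eif1ax (chromosome X, 159372178 to 159389928) was 221 FPKM in MEF, 180.3 in cNSC, 129 in pOKSM, 198 in pBKSM, 129 and 115 in mcBKSM clones 1 and 3 and 165 in DTA. Eif1a was highest in MEF and lowest in DTA, and among iNSCs Eif1ax was high where Eif1a was low. The share of Eif1a in the pair was 8.98% in DTA, 12.5% in pBKSM and 13.9% in cNSC, and 23.4% to 28.9% in the other 4 libraries. Against mcBKSM, pBKSM differed by -0.74 ± 0.09 for Eif1a and 0.70 ± 0.12 for Eif1ax (limma adjusted p = 0.0689 and 0.0920), and neither passed. Against the other iNSCs, DTA differed by -1.28 ± 0.34 for Eif1a (limma adjusted p = 0.146), which did not pass.

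The 3 subunits of eIF2 summed to 226 FPKM in MEF, 185 in cNSC, 177 to 192 in 4 iNSC libraries and 139 in DTA. Eif2s1, the alpha subunit that the stress kinases phosphorylate, was 77.0 FPKM in MEF, 58.1 in cNSC, 67.1 in pOKSM, 55.4 in pBKSM, 69.4 and 68.1 in mcBKSM clones 1 and 3 and 39.1 in DTA. Eif2s2, the beta subunit, ranged from 78.7 FPKM in DTA to 125 in MEF. In FPKM as deposited, both were highest in MEF and lowest in DTA, and 0 of 3 subunits passed in each of the 4 comparisons. Against the other iNSCs, the subunits' median difference in DTA was -0.40 as deposited and -0.07 with libraries rescaled to the same total. That rescaling moved the median of all genes from -0.01 to 0.30. Eif2s3x, the X-linked gamma subunit (chromosome X, 94188707 to 94212862), was 23.4 FPKM in MEF, 33.9 in cNSC, 16.3 in pOKSM, 20.4 in pBKSM, 13.4 and 13.2 in mcBKSM clones 1 and 3 and 21.4 in DTA. It was highest in cNSC and lowest in the 2 mcBKSM clones, with a difference of -0.99 ± 0.32 between iNSCs and cNSC (limma adjusted p = 0.288), which did not pass. DTA differed from the other iNSCs by 0.43 ± 0.29 (limma adjusted p = 0.429), without passing. Its Y-linked counterpart Eif2s3y, no member, was 48.2 FPKM in cNSC, 31.2 in pBKSM, 0.0730 in DTA and listed at 0 in the other 4. Another Y-linked gene, Ddx3y, was 11.4 to 28.3 FPKM in cNSC, pOKSM, pBKSM and both clones, 0.0391 in DTA and listed at 0 in MEF. The libraries thus differed in Y-linked transcripts, and cNSC held them although its mice were described as females. Xist, an X-linked gene, was 0.0343 FPKM in cNSC and at most 0.182 in any library (MEF). The part of the Y-linked differences in the Eif2s3x values was not tested.

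The exchange factor eIF2B has 5 subunits. Eif2b1 to Eif2b5 lay between 15.1 FPKM (Eif2b3 in DTA) and 55.6 FPKM (Eif2b5 in clone 1), and the highest of the 7 libraries was 1.36 times (Eif2b2) to 2.17 times (Eif2b3) the lowest. In DTA, 3 of 5 were lower at an unadjusted p under 0.05 (limma), with 10.0% of all genes, and 0 of 5 passed the adjusted test in each comparison. Their median difference in DTA was -0.47 with 4 negative as deposited, and -0.15 with 3 negative after rescaling to the same total. The median of all genes was -0.01 and 0.30. Eif2b3, the gamma subunit, was 32.7 FPKM in MEF, 24.3 in cNSC, 21.5 in pOKSM, 20.8 in pBKSM, 26.9 and 23.3 in mcBKSM clones 1 and 3 and 15.1 in DTA. It was highest in MEF and lowest in DTA.

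The 4 kinases that phosphorylate eIF2 alpha differed from each other in pattern. Eif2ak1, the haem-regulated kinase gene, varied least of the tested members (highest library 1.19 times the lowest), at 30.4 FPKM in MEF, 27.3 in cNSC, 32.1 in pOKSM, 28.7 in pBKSM, 31.3 and 32.4 in mcBKSM clones 1 and 3 and 30.5 in DTA. Eif2ak2, which encodes PKR, the kinase activated by double-stranded RNA (chromosome 17, 78852564 to 78882573), was 23.0 FPKM in MEF, 11.0 in cNSC, 6.23 in pOKSM, 3.02 in pBKSM, 6.85 and 6.87 in mcBKSM clones 1 and 3 and 8.55 in DTA. MEF was highest and pBKSM lowest, 7.60 times apart. pBKSM differed from mcBKSM by -0.97 ± 0.13 (limma adjusted p = 0.0749) and DTA from the other iNSCs by 0.55 ± 0.45 (limma adjusted p = 0.505), neither of which passed. The difference between iNSCs and MEF was -1.77 ± 0.47 (SE, limma adjusted p = 0.0603) and did not pass, while without pBKSM it was -1.57 and passed (limma adjusted p = 0.0179).

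Eif2ak3, encoding PERK of the endoplasmic reticulum stress response (chromosome 6, 70844515 to 70905245), was 4.68 FPKM in MEF, 9.61 in cNSC, 7.24 in pOKSM, 10.9 in pBKSM, 4.96 and 5.47 in mcBKSM clones 1 and 3 and 12.2 in DTA. Eif2ak4, encoding GCN2, which senses uncharged tRNA (chromosome 2, 118388618 to 118475234), was 12.9 FPKM in MEF, 6.51 in cNSC, 10.7 in pOKSM, 6.70 in pBKSM, 11.3 and 14.1 in mcBKSM clones 1 and 3 and 3.08 in DTA. The order of the libraries was nearly opposite for the 2 genes: DTA was highest for Eif2ak3 and lowest for Eif2ak4, and pBKSM and cNSC followed DTA in both. DTA differed from the other iNSCs by 0.75 ± 0.43 for Eif2ak3 and -1.48 ± 0.40 for Eif2ak4 (limma adjusted p = 0.383 and 0.150). pBKSM differed from mcBKSM by 0.94 ± 0.15 and -0.82 ± 0.21 (limma adjusted p = 0.0846 and 0.134). None of these 4 differences passed. Without pBKSM both differences of DTA passed, at 0.95 and -1.66 (limma adjusted p = 0.0452 and 0.0135).

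eIF3 is the largest initiation factor, and its 13 members here, Eif3a to Eif3m with the Eif3j copies summed, took 1690 FPKM (DTA) to 2962 FPKM (clone 1). Eif3f rose in iNSCs against MEF. It was 102 FPKM in MEF, 193 in cNSC, 262 in pOKSM, 269.8 in pBKSM, 259 and 268 in mcBKSM clones 1 and 3 and 180.2 in DTA (chromosome 7, 108934417 to 108942951). MEF was the lowest library and 4 iNSC libraries lay between 259 and 270 FPKM, with DTA below them. The mean over iNSCs was 248 ± 38.1 FPKM (SD, n = 5), and the log2 difference from MEF was 1.25 ± 0.26 (SE, limma adjusted p = 0.0305). The call was lost without pOKSM, pBKSM, clone 1 or clone 3 (limma adjusted p = 0.0549 to 0.0875).

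The subunits were not in a fixed proportion across cell types. In MEF, Eif3h, Eif3l, Eif3e, Eif3b, Eif3d and Eif3c stood at 214 to 331 FPKM, Eif3k at 179 FPKM, and Eif3a, Eif3f, Eif3g, Eif3i and Eif3m at 89.3 to 153 FPKM. Leaving out Eif3j, the highest subunit was 3.71 times the lowest in MEF, 1.63 times in cNSC and 2.00 to 2.79 times in the iNSC libraries. Eif3l was 309 FPKM in MEF, 161 in cNSC, 160.5 in pOKSM, 171 in pBKSM, 209 and 145 in mcBKSM clones 1 and 3 and 128 in DTA. Eif3b, the RNA-binding core subunit, was 271 FPKM in MEF, 156 in cNSC, 163 in pOKSM, 146 in pBKSM, 171 and 153 in mcBKSM clones 1 and 3 and 100.1 in DTA. For both, MEF was above every other library, whose values reached 209 and 171 FPKM. Their differences between iNSCs and MEF were -0.94 ± 0.27 and -0.91 ± 0.31 (SE, limma adjusted p = 0.0737 and 0.106), and neither passed. With each library rescaled to the same total both passed (limma adjusted p = 0.0361 and 0.0408).

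Eif3g and Eif3i, which sit together at the mRNA entry side of the ribosome, were instead lowest in MEF. Eif3g was 89.3 FPKM in MEF, 165 in cNSC, 202 in pOKSM, 141 in pBKSM, 221 and 192 in mcBKSM clones 1 and 3 and 99.6 in DTA. Eif3i was 143 FPKM in MEF, 180.4 in cNSC, 301 in pOKSM, 268 in pBKSM, 345 and 306 in mcBKSM clones 1 and 3 and 169 in DTA. DTA lay next to MEF in both, and the differences between iNSCs and MEF, 0.87 ± 0.45 and 0.92 ± 0.39 (SE, limma adjusted p = 0.242 and 0.174), did not pass. Eif3k and Eif3h were lowest in cNSC, at 129.7 and 159.8 FPKM, and reached 317 (clone 3) and 388 FPKM (clone 1). Their differences between iNSCs and cNSC were 0.97 ± 0.42 and 0.86 ± 0.35 (limma adjusted p = 0.401 and 0.375) and did not pass. Eif3a and Eif3c, the scaffold subunits, ranged from 103 (DTA) to 149.9 FPKM (MEF) and from 139.9 (pBKSM) to 214 FPKM (MEF) over the 7 libraries.

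Against the other iNSCs, all 13 subunits were lower in DTA as deposited, with 2 of 13 higher when libraries were rescaled to the same total and 1 of 13 higher after quantile normalization. The rescaling moved the median of all genes to 0.30, and 13 of 13 subunits lay below that median, as they did below the median of -0.01 as deposited. Their median difference was -0.62, and 8 of 13 were lower at an unadjusted p under 0.05 (limma), with 10.0% of all genes. None passed the adjusted threshold (limma, smallest adjusted p = 0.0854, Eif3k). In pBKSM, 12 of 13 were below the mean of the mcBKSM clones, with a median of -0.25, and 13 of 13 after quantile normalization or rescaling to the same total. Of these, 0 passed (limma, smallest adjusted p = 0.0908, Eif3a).

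eIF3j, which binds loosely and helps place the small subunit, is encoded by Eif3j1 (chromosome 2, 122028546 to 122056598) and by Eif3j2, a copy with 1 exon. Their protein-coding transcripts, of 5413 and 2379 bases, were 99.4% identical over 2379 aligned columns, with 4 mismatches and a longest identical run of 1100 bases. Reads can therefore be assigned to either copy, and the sum is the safer measure. The sum was 14.0 FPKM in MEF, 22.7 in cNSC, 27.6 in pOKSM, 22.7 in pBKSM, 28.6 and 27.0 in mcBKSM clones 1 and 3 and 22.8 in DTA. MEF was below all other libraries, and the sum rose in iNSCs by 0.83 ± 0.19 (SE, limma adjusted p = 0.0388). The call was lost without pOKSM, clone 1 or clone 3 and with libraries rescaled to the same total (limma adjusted p = 0.0535 to 0.107).

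The split between the copies went separate ways by library. Eif3j1 held 0.621% of the sum in MEF, 0.378% in cNSC, 0.405% in pOKSM and 0.531% in pBKSM, but 94.2% and 97.6% in mcBKSM clones 1 and 3 and 57.2% in DTA. With the copies kept apart, Eif3j1 was 0.121 FPKM in pBKSM and 26.6 on average in mcBKSM, a difference of -4.62 ± 0.11 that passed (SE, limma adjusted p = 0.0367). Eif3j2 differed the other way, by 3.49 ± 0.41 (limma adjusted p = 0.0686), while the summed level differed by -0.28 ± 0.10 (limma adjusted p = 0.189). pOKSM and pBKSM thus stood with MEF and cNSC, the mcBKSM clones stood at the other end and DTA lay between. The part of read assignment in this split was not tested.

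**Figure D4:**
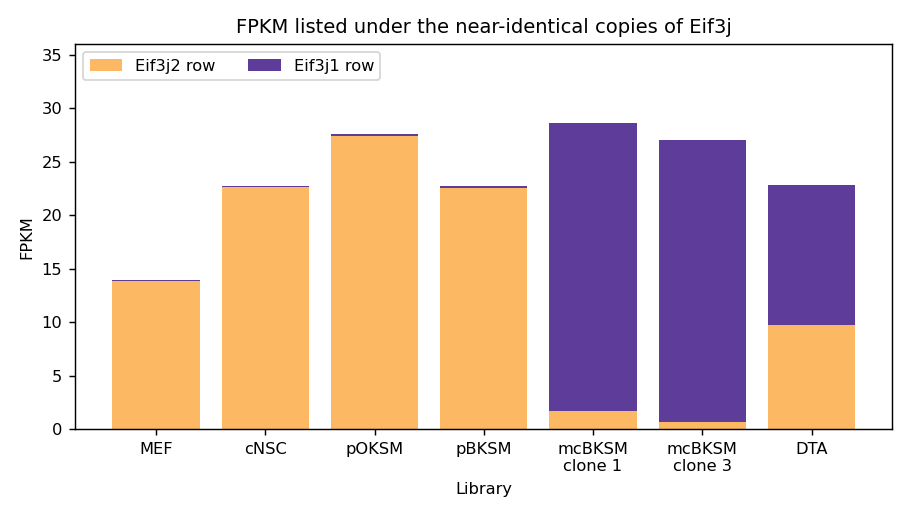
FPKM (y axis) listed under Eif3j2 (orange) and Eif3j1 (purple) in each library (x axis), stacked to their sum. The sum stays between 14.0 and 28.6 FPKM, while the Eif3j1 part is 0.621% or less in 4 libraries, 57.2% in DTA and 94.2% and 97.6% in the mcBKSM clones.

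In the cap-binding group, Eif4g3 showed the largest difference between iNSCs and MEF of the 59 tested members. It encodes eIF4GII, a scaffold that joins the cap-binding protein, the helicase and eIF3, and lies on chromosome 4 (137993022 to 138208508). It was 5.47 FPKM in MEF, 46.5 in cNSC, 28.3 in pOKSM, 35.0 in pBKSM, 21.8 and 25.0 in mcBKSM clones 1 and 3 and 32.0 in DTA. MEF was lowest and cNSC highest, 8.50 times apart, and the iNSC libraries lay between them without overlap. The mean over iNSCs was 28.4 ± 5.28 FPKM (SD, n = 5), and the rise from MEF was 2.17 ± 0.27 (SE, limma adjusted p = 0.00556), 2.09 to 2.34 over the 11 other settings and past the threshold in each. The difference from cNSC was -0.71 ± 0.27 (limma adjusted p = 0.351) and did not pass.

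Its paralogues did not share this pattern. Eif4g1, the main scaffold gene, was 185 FPKM in MEF, 195 in cNSC, 159.9 in pOKSM, 135 in pBKSM, 150.4 and 139 in mcBKSM clones 1 and 3 and 129 in DTA. Eif4g2, encoding DAP5, a scaffold that lacks the eIF4E-binding part, was 225 FPKM in MEF, 265 in cNSC, 207 in pOKSM, 205 in pBKSM, 151 and 155 in mcBKSM clones 1 and 3 and 204 in DTA. Both were higher in MEF and cNSC than in the iNSC libraries, without passing (limma adjusted p = 0.182 and 0.446 against MEF). Eif4g3 made up 2.87% of Eif4g1 and Eif4g3 together in MEF, 19.3% in cNSC and 12.7% to 20.6% in the iNSC libraries.

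Eif4e, the cap-binding protein gene, was 75.9 FPKM in MEF, 86.3 in cNSC, 91.8 in pOKSM, 93.7 in pBKSM, 88.5 and 94.4 in mcBKSM clones 1 and 3 and 62.3 in DTA. It lay within 75.9 to 94.4 FPKM apart from DTA, which was lowest, at a difference of -0.56 ± 0.12 from the other iNSCs (SE, limma adjusted p = 0.113). Eif4e2, whose product binds the cap with less affinity and is tied to repression, ranged from 33.5 (cNSC) to 64.5 FPKM (pBKSM). Eif4a1, the main helicase gene, was 573 FPKM in MEF, 771 in cNSC, 914 in pOKSM, 754 in pBKSM, 980.4 and 821 in mcBKSM clones 1 and 3 and 479 in DTA. Eif4a2, a near relative, was 69.9 FPKM in MEF, 113 in cNSC, 134 in pOKSM, 118 in pBKSM, 139 and 158 in mcBKSM clones 1 and 3 and 94.9 in DTA. MEF and DTA were the 2 lowest libraries for both, and the difference of Eif4a2 between iNSCs and MEF was 0.85 ± 0.28 (limma adjusted p = 0.0990), which did not pass but did without DTA (0.96, adjusted p = 0.0270). Eif4b and Eif4h, helper proteins of the helicase, ranged from 130.3 to 313 FPKM and from 187 to 288 FPKM, and 0 of 2 passed in any of the 4 comparisons.

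Of the 4 inhibitors of eIF4E, Eif4ebp1 fell in iNSCs. It encodes 4E-BP1, which mTORC1 inactivates by phosphorylation, and lies on chromosome 8 (27260329 to 27276674). It was 267 FPKM in MEF, 59.6 in cNSC, 72.2 in pOKSM, 77.1 in pBKSM, 129 and 96.8 in mcBKSM clones 1 and 3 and 82.2 in DTA. MEF stood above all others, 4.48 times the lowest library, cNSC, and iNSCs averaged 91.5 ± 22.9 FPKM (SD, n = 5). The log2 difference from MEF was -1.57 ± 0.33 (SE, limma adjusted p = 0.0291), a call that was lost without pOKSM, pBKSM or clone 3 (adjusted p = 0.0533 to 0.0677). Eif4ebp2, the paralogue that is prominent in brain, was 40.5 FPKM in MEF, 57.8 in cNSC, 57.4 in pOKSM, 38.1 in pBKSM, 55.4 and 53.2 in mcBKSM clones 1 and 3 and 52.5 in DTA. It was higher in cNSC and 4 iNSC libraries than in MEF and pBKSM, without passing between iNSCs and MEF (limma adjusted p = 0.410). Eif4ebp1 therefore made up 84.6% of the 3 paralogues in MEF, 47.6% in cNSC and 52.2% to 66.7% in iNSCs.

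The ratio of Eif4ebp1 to Eif4e was 3.52 in MEF, 0.690 in cNSC, 0.787 in pOKSM, 0.823 in pBKSM, 1.46 and 1.03 in the mcBKSM clones and 1.32 in DTA. With all 3 inhibitor paralogues it was 4.16 in MEF and 1.36 to 2.29 elsewhere. Both ratios were higher in MEF than in any other library. Eif4ebp3 stayed between 7.85 and 11.8 FPKM, and Eif4enif1, whose product carries eIF4E to the nucleus, between 23.8 and 39.0 FPKM.

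Eif6 fell in iNSCs as well. Its product keeps the large ribosomal subunit from joining too early and is needed to make that subunit, and the gene lies on chromosome 2 (155819832 to 155826925). It was 171 FPKM in MEF, 78.7 in cNSC, 72.7 in pOKSM, 65.9 in pBKSM, 80.4 and 71.5 in mcBKSM clones 1 and 3 and 54.7 in DTA. MEF was above every other library, and cNSC lay within the iNSC range of 54.7 to 80.4 FPKM. The mean over iNSCs was 69.0 ± 9.53 FPKM (SD, n = 5) and the difference from MEF -1.31 ± 0.22 (SE, limma adjusted p = 0.0148), -1.36 to -1.15 over the 11 other settings and past the threshold in each.

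Eif5b, the GTPase of subunit joining (chromosome 1, 37998010 to 38055579), was 35.7 FPKM in MEF, 22.2 in cNSC, 23.0 in pOKSM, 22.5 in pBKSM, 22.1 and 23.2 in mcBKSM clones 1 and 3 and 19.3 in DTA. All 6 neural stem cell libraries lay between 19.3 and 23.2 FPKM, below MEF, and the fall from MEF to iNSCs was -0.68 ± 0.16 (SE, limma adjusted p = 0.0405). The call was lost after quantile normalization and without pOKSM, pBKSM, clone 1 or clone 3 (limma adjusted p = 0.0576 to 0.107). Eif5, which makes eIF2 hydrolyse its GTP at the start codon, ranged from 86.5 to 128 FPKM. Eif5a, the hypusine-bearing factor that helps peptide bonds form at difficult sequences, was 1339.7 FPKM in MEF, 695 in cNSC, 1314 in pOKSM, 1007 in pBKSM, 1291 and 1147 in mcBKSM clones 1 and 3 and 569 in DTA. It was lowest in DTA and cNSC, and DTA differed from the other iNSCs by -1.06 ± 0.20 (limma adjusted p = 0.0916), without passing. Eif5a2, its scarce paralogue, held 0.409% to 1.05% of the pair.

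**Figure D5:**
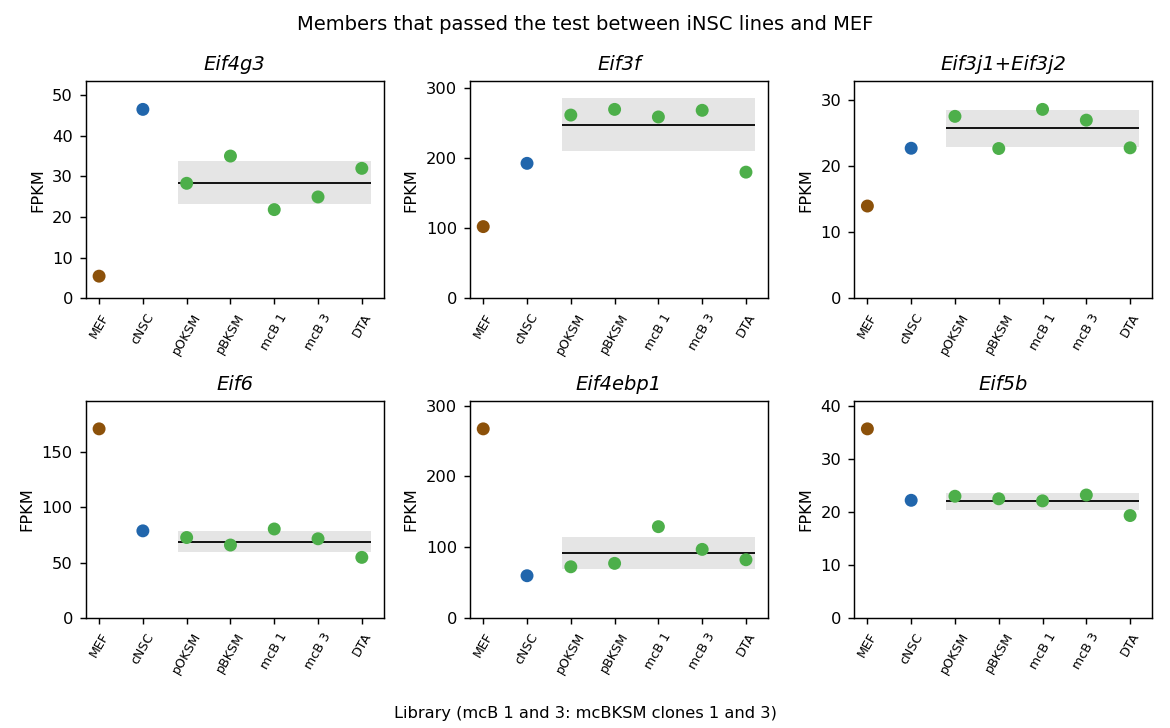
FPKM (y axis, from 0) of the 6 members that passed between iNSCs and MEF in each library (x axis, 1 point each), with the line and grey band giving the mean and SD of the 5 iNSC libraries. The MEF point is the lowest for Eif4g3, Eif3f and the Eif3j sum and the highest for Eif6, Eif4ebp1 and Eif5b.

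Elongation factors carried most of the summed level. Eef1a1, which delivers aminoacyl-tRNA (chromosome 9, 78478449 to 78489151), was 5869.8 FPKM in MEF, 5226 in cNSC, 9076 in pOKSM, 8303 in pBKSM, 8516 and 10229 in mcBKSM clones 1 and 3 and 4669 in DTA. It has many processed pseudogenes, so its value depends on how shared reads were placed. Of the exchange factor subunits, Eef1b2 was 403 FPKM in MEF, 244 in cNSC, 530.4 in pOKSM, 637 in pBKSM, 629 and 621 in mcBKSM clones 1 and 3 and 239 in DTA. Eef1g, the subunit that anchors them, was 581 FPKM in MEF, 422 in cNSC, 678 in pOKSM, 659 in pBKSM, 769 and 685 in mcBKSM clones 1 and 3 and 336 in DTA. DTA and cNSC were the 2 lowest libraries for Eef1a1, Eef1b2 and Eef1g.

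Eef1d, the third exchange factor subunit, was instead highest in MEF, at 237 FPKM in MEF, 142 in cNSC, 155 in pOKSM, 177 in pBKSM, 179 and 139 in mcBKSM clones 1 and 3 and 94.4 in DTA. Eef2, the translocase that diphtheria toxin fragment A inactivates as a protein (chromosome 10, 81176631 to 81182498), was 1442 FPKM in MEF, 1159 in cNSC, 1352 in pOKSM, 1432 in pBKSM, 1574 and 1428 in mcBKSM clones 1 and 3 and 936 in DTA. DTA was lowest for all 5 tested elongation factors. Against the other iNSCs, the differences were -1.33 ± 0.16 for Eef1b2, -1.05 ± 0.14 for Eef1g, -0.95 ± 0.20 for Eef1a1, -0.77 ± 0.19 for Eef1d and -0.63 ± 0.15 for Eef2 (SE). All 5 were lower at an unadjusted p under 0.05 (limma), with 10.0% of all genes. None passed the adjusted test, the limma adjusted p running from 0.0627 (Eef1b2) to 0.132 (Eef1d). After quantile normalization Eef2 turned to 0.26. Eef1a1 ranked first in all 5 iNSC libraries, so that normalization gives it 1 value in each and does not bear on it. With libraries rescaled to the same total all 5 stayed negative, with a median of -0.61. Without pBKSM all 5 passed (limma adjusted p = 0.0128 to 0.0414), where 32.4% of all genes did.

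The remaining members regulate or border on these factors. Eef2k, the kinase that inactivates eEF2, lay between 8.30 and 12.6 FPKM. Eef2kmt, which methylates eEF2, was 4.28 FPKM in MEF, 10.8 in cNSC, 5.61 in pOKSM, 9.71 in pBKSM, 7.35 and 7.76 in mcBKSM clones 1 and 3 and 5.90 in DTA. cNSC was highest and MEF lowest, and the difference between iNSCs and MEF did not pass (limma adjusted p = 0.242). Eef1e1, a scaffold protein of the aminoacyl-tRNA synthetase complex, was 57.8 FPKM in MEF, 75.9 in cNSC, 70.3 in pOKSM, 65.9 in pBKSM, 70.4 and 70.7 in mcBKSM clones 1 and 3 and 39.6 in DTA. DTA was apart on the low side, at -0.79 ± 0.12 from the other iNSCs (limma adjusted p = 0.0759). Eif2a, which can bring initiator tRNA without eIF2, was 53.5 FPKM in MEF, 31.0 in cNSC, 59.7 in pOKSM, 52.6 in pBKSM, 72.5 and 70.8 in mcBKSM clones 1 and 3 and 31.9 in DTA. cNSC and DTA were lowest. Eif4a3 ranged from 117 to 172 FPKM, Eif2d, an alternative initiation and recycling factor, from 15.6 to 29.2 FPKM and Eif1ad from 27.8 to 40.9 FPKM, and 0 of these 3 passed in any of the 4 comparisons.

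Tested members with the E-box can be set beside those without it. The median difference of the 12 genes with the motif and of 35 other tested members with a window was 0.15 and 0.09 between iNSCs and MEF. It was 0.09 and -0.01 between iNSCs and cNSC and -0.08 and -0.14 between pBKSM and mcBKSM. Between DTA and the other iNSCs it was -0.55 and -0.40. These medians are given without a test. Myc stood at 339 to 485 FPKM in pOKSM and the clones and at 50.1 and 78.9 in DTA and pBKSM. Its part in these differences was not tested.

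Other genes of the translation pathway were taken from 7 lists. Counts of list genes that rose or fell between iNSCs and MEF stand beside 6.78% of all genes higher and 9.55% lower. Of 11 poly(A)-binding and cap regulators, 1 rose: Paip2, an inhibitor of poly(A)-binding protein, from 85.1 FPKM in MEF to 142 to 175 in the iNSC libraries (log2 difference 0.88 ± 0.16, SE, limma adjusted p = 0.0205), a call lost without pOKSM, clone 1 or clone 3 (adjusted p = 0.0554 to 0.0620). Of 15 integrated stress response targets and phosphatases, Sesn2, a leucine sensor that restrains mTORC1, rose from 6.55 FPKM to 26.2 to 54.3 (2.28 ± 0.37, limma adjusted p = 0.0132), called in each of the 11 other settings. Of 16 mTORC1 pathway genes, Ddit4, encoding the mTORC1 inhibitor REDD1, rose from 13.2 FPKM to 46.0 to 176 (2.92 ± 0.72, limma adjusted p = 0.0487). That call was lost in 7 of 11 other settings: unfiltered, under both other scalings and without pOKSM, clone 1, clone 3 or DTA (limma adjusted p = 0.0526 to 0.109). Ddit4 was also the only gene of the 7 lists called between pBKSM and mcBKSM, where it was lower in pBKSM (46.0 FPKM against 167 and 176, -1.88 ± 0.08, limma adjusted p = 0.0388, and 0.0505 unfiltered). Sesn2 and Ddit4 are both known as inhibitors of mTORC1, not as effectors of it.

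Of 20 cytosolic aminoacyl-tRNA synthetase genes, Tars and Nars, for threonine and asparagine, fell (-1.61 ± 0.27 and -0.94 ± 0.23, SE, limma adjusted p = 0.0153 and 0.0449), and the median of the list was -0.51 (-0.41 after quantile normalization) beside 0.03 for all genes. The Nars call was lost under both other scalings and without pOKSM, pBKSM, clone 3 or DTA (limma adjusted p = 0.0577 to 0.112), and the Tars call without pOKSM (0.0504). Of 10 mitochondrial translation factors, Mtif2 and Mtrf1, an initiation and a release factor, rose (1.18 ± 0.29 and 1.61 ± 0.32, limma adjusted p = 0.0472 and 0.0254). The Mtif2 call was lost without pOKSM, pBKSM, clone 1 or clone 3 (limma adjusted p = 0.0631 to 0.114) and the Mtrf1 call without pOKSM or clone 1 (0.0727 and 0.0600). None of the 6 termination and recycling genes and none of the 9 genes that modify eIF5A and eEF2 passed in any comparison (limma, smallest adjusted p = 0.0608, Dph6 of diphthamide synthesis, lower in iNSCs than in MEF). Between iNSCs and cNSC and between DTA and the other iNSCs, limma called 0 genes of the 7 lists (smallest adjusted p = 0.0721, Paip2, and 0.0635, Ddit3). In DTA against the other iNSCs, 17 of 20 synthetase genes were negative (median -0.30), and 9 of 20 with libraries rescaled to the same total, which moved the median of all genes to 0.30. Relative to the median of all genes, 17 of 20 lay below as deposited and 16 after rescaling (medians -0.29 and -0.27 from it). Of the 15 integrated stress response genes, 10 were positive as deposited (median 0.18) and 14 after rescaling, and their median lay 0.19 and 0.21 above that of all genes. Ddit3, which encodes the stress factor CHOP, was 39.1 FPKM in DTA and 63.0 in MEF and 7.41 to 11.0 FPKM in the other 5 libraries.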

How the data were processed

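RNA-seq of 7 libraries was analysed from a table of FPKM values that the authors deposited. The mm10 genome, Cufflinks 2.2.1 with Cuffnorm, STAR 2.5.2b and R 3.3.2 are named per the submitters' processing notes, with no role, setting or strand handling. FPKM scales a fragment count to transcript length and library size, so it keeps no total RNA amount, and reads shared by near copies may be placed on either. Depth per library was estimated from the smallest steps between FPKM values of low genes, and its use here is limited to floors.

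Members were the rows named Eif or Eef and a digit, without Eif2s3y, with Eif3j1 and Eif3j2 summed. The members and gene lists (7 of translation pathways, 9 of cell type markers) were chosen with earlier results of these data known. Values were tested as log2(FPKM + 1) with limma 3.58.1 in R 4.3.3 (Benjamini-Hochberg over all genes that reached 1 FPKM in a library of the fit), and the code was checked on simulated data. iNSC libraries were grouped for the tests against MEF and cNSC, groups were kept apart for pBKSM against mcBKSM, and a fit of the 5 iNSC libraries compared DTA with the other 4. These comparisons share libraries: both of the first use all iNSCs. Groups of 1 library borrow their spread from the replicated side. Levels of different genes are compared only as FPKM, which is per length. Named genes were fixed members of each factor, every member that passed, the 3 largest differences each way where none passed (at least 5 FPKM on the higher side), list genes that passed (up to 4) and Myc. Eif1a, Eif1ad, Eif2a, Eif2d, Eif4enif1, Eef1e1, Eef2kmt, Dph6, Ddit3 and Ddx3y were added after their values were seen.

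Alternatives were a pseudocount of 0.1, no filter, a minimum of 5 FPKM, quantile normalization, rescaling each library to 1 total (TPM scale, with filter and pseudocount applied after it), the Eif3j copies kept apart, and each library left out in turn. Coordinates are from GENCODE M21 (GRCm38) and promoter windows from RefSeq (GRCm38.p6). Eif3j2, Eif1a and Eif4ebp3 are given without coordinates. Protein sequences were not used here.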

Additional observations from a re-analysis of the deposited data

Results flagged for a closer look

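In 8 of 59 members checked, 1 of the 5 iNSC libraries lay farther from the rest than Dixon's 95% critical value allows. Of all 12954 genes checked in the same way, 13.2% had such a library, so the count of members is near that share, though chance alone flags about 1 in 20 groups. The library was DTA, on the low side, in 7 of the 59 members checked and in 1.67% of all genes checked. Among flagged rows only, this was 7 of 8 members and 216 of 1706 genes. The members' values move together, and they are not independent cases. The check used FPKM as deposited. DTA had a lower total FPKM (445433) than the other iNSC libraries (544949 in clone 3 to 594605 in pBKSM). How many of these flags would remain after rescaling to the same total was not tested. Eef1b2 was 238.8 FPKM in DTA, with 530.4 FPKM in the nearest library. Eef1g was 336 FPKM, with 659 FPKM the nearest. Eef1e1 was 39.6 FPKM, with 65.9 FPKM the nearest. Eif3f was 180.2 FPKM, with 259 FPKM the nearest. Eif4e was 62.3 FPKM, with 88.5 FPKM the nearest. Eif4h was 187 FPKM, with 243 FPKM the nearest. Eif5b was 19.3 FPKM, with 22.1 FPKM the nearest. The eighth was Eif4ebp2, at 38.1 FPKM in pBKSM with 52.5 FPKM the nearest.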

How the results depend on the processing

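Among single genes, 395 alternative values kept their direction and, where a p-value existed, their side of the threshold. Of the others, 40 lost their call, 23 gained one and 1 turned: Eef2 in DTA against the other iNSCs, at 0.26 after quantile normalization. The number of members called by limma changed with the filter: without it, 1 was called between iNSCs and cNSC (Eef1a2) and 4 between DTA and the other iNSCs (Eef1b2, Eef1e1, Eef1g and Eif4e). With the Eif3j copies kept apart, 1 was called between pBKSM and mcBKSM (Eif3j1), where 5.80% of all genes were called with the copies summed. Leaving out 1 library gave 2 to 10 members called between iNSCs and MEF, 0 to 3 between iNSCs and cNSC and 0 to 27 between DTA and the other iNSCs. In the fits with these highest counts, 24.7% and 6.84% (both without DTA) and 32.4% (without pBKSM) of all genes were called. Over all genes, the calls between DTA and the other iNSCs ran from 0 (without mcBKSM clone 1) to 3961 of 12238 (without pBKSM). They were 583 when unfiltered and 44 of 12377 as reported. In the comparison with cNSC they ran from 50 to 885, with 152 of 13041 as reported. Between iNSCs and MEF they ran from 1147 to 3196 and between pBKSM and mcBKSM from 361 to 1452. The cause of these shifts was not tested. Leaving out a clone leaves pBKSM against mcBKSM without residual degrees of freedom, so only values were computed there, and their directions held. No paired analysis was possible because only the mcBKSM label carries clone numbers and the other groups are 1 library each. Depth limits Eef1a2, Eif4e3 and Eif4e1b, which stayed below 1 FPKM in every library. Eef1a2 in cNSC (0.325 FPKM) and Eif4e3 in pOKSM (0.407) lay above the level of 3 fragments there (0.0968 and 0.102).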
